A study of Homo sapiens with 24 samples.

Results

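The genes of the proteasome subunits and of the proteins that activate, inhibit or assemble the proteasome were followed across 2 myeloma cell lines. Members were all genes of the array's probe annotation whose symbol is PSMA, PSMB, PSMC, PSMD, PSME, PSMF or PSMG followed by a number, which gave 44 of 20045 annotated genes. Each gene was read from 1 probe, the one with the highest mean among its probes above background, and 41 of the 44 genes had such a probe. The proteasome degrades proteins that carry ubiquitin. Its core is a barrel of alpha and beta rings with the protein-cutting sites inside, and a regulatory particle of ATPases and non-ATPase subunits on its ends recognises, unfolds and admits the substrate. Interferon replaces the catalytic beta subunits by immunoproteasome forms, which favour peptides for MHC class I. Plasma cells secrete large amounts of antibody and depend on protein quality control, and proteasome inhibitors are a mainstay of myeloma therapy.

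MM1S and MM1R are human multiple myeloma lines, and MM1R is a glucocorticoid (GC) resistant subclone of MM1S, selected by chronic exposure to dexamethasone (Dex), a synthetic GC. Cells of each line received Dex (1 µM, 72 h) or were left untreated, and in a second experiment received a synthetic miR-150-5p mimetic (150 nM, by electroporation, 72 h) or a mock transfection. That gave 8 groups of 3 arrays, which the study describes as independent experiments. Sensitivity and resistance are each represented by 1 line, so line and GC response cannot be told apart. Untreated and mock cells also differ in electroporation and in experiment, which cannot be told apart.

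Between 17059 and 21328 probes per array (median 19484.5) were above background, as given by a detection p-value under 0.05. Dex raised the GC target FKBP5 by 3.40 ± 0.14 (adjusted p = 8.72e-13) on the log2 scale in MM1S cells, against 0.02 ± 0.14 (adjusted p = 0.998) in MM1R cells (limma fits, ± SE, with p adjusted over all probes by Benjamini-Hochberg, as for every adjusted p given here). NR3C1, the GC receptor, was lower in MM1R than in MM1S cells (-1.03 ± 0.08, adjusted p = 3.00e-08 untreated). All 8 plasma cell markers examined were above background on every array, whereas PAX5 of B cells and CD3D of T cells were below background on all 24. Other markers of these cells were above background on some arrays, CD22 on 7 and MS4A1 on 4, CD2 on 13, CD3E on 3 and CD8A on 1. Of the monocyte markers CD68 was above background on 24 arrays, FCGR3A on 15, CD14 on 11, CSF1R on 4 and LYZ on 3. Of the fibroblast markers COL1A2 was on 12, COL1A1 and DCN on 6 and COL3A1 on 2. The third MM1S mimetic array lay closer to the mock arrays (SD of the log2 differences over probes 0.156 to 0.206) than to the other two mimetic arrays (0.321 and 0.322). Counts of members called with the mimetic are therefore given with and without it.

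PSMA8, the testis form of an alpha subunit, was above background on 0 arrays, PSMB11, the thymus-specific catalytic subunit, on 1 array, and PSMF1, an inhibitor of the core, on 0 arrays. These 3 members have no usable level here. PSMD9, an assembly chaperone of the regulatory particle, was above background on 14 of the 24 arrays, and the other 40 members on all 24. Other subunits were not analysed here, so counts by role are of those measured. The group means of a member spanned between 0.181 (PSMD9) and 1.27 log2 units (PSMD8), with a median of 0.535 over the 41 members. Untreated MM1S cells held the highest of the 8 group means for 17 members and the lowest for 0. Mock-transfected MM1S cells held the lowest for 13 members and Dex-treated MM1S cells for 8. These spans and counts are on the quantile-normalized scale and were not set against all genes. In mock against untreated MM1S cells the members' median change was -0.25 log2 units on that scale. It was 0.15 with arrays scaled by the median of all probes, so the direction between these groups turned with the scaling.

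To see how the proteasome genes responded to GC, Dex-treated cells were compared with untreated cells of the same line. In MM1S cells 11 of the 41 members fell and 0 rose (adjusted p under 0.05), that is 26.8% of the members, while 13.5% of all 11535 genes tested fell and 14.3% rose. Another 23 members were lower without passing the test, and the median change of the members was -0.21 log2 units, against 0.01 over all genes. The falls lay in the regulatory particle (3 of the 5 ATPases and 3 of the 9 non-ATPase subunits measured), in the core (2 of 6 alpha and 2 of 7 constitutive beta subunits) and in 1 of 4 activators. None of the 3 immunoproteasome subunits, the 3 regulatory-particle chaperones or the 4 core chaperones passed. The plasma cell markers CD38 (-0.88 ± 0.17, adjusted p = 6.21e-04), IRF4 (-0.42 ± 0.13, adjusted p = 0.0282) and JCHAIN (-0.42 ± 0.08, adjusted p = 3.73e-04) fell as well, 3 of 8 on that list, whose summed level was 15.91 to 15.95 log2 units with Dex and 16.06 to 16.24 untreated, and their part in the proteasome result was not tested. In MM1R cells 0 members passed, with 0 at an unadjusted p under 0.05 either, beside 0.0% of all genes fallen and 0.0% risen (432 genes at an unadjusted p under 0.05, and a median change of the members of -0.02).

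**Figure D1:**
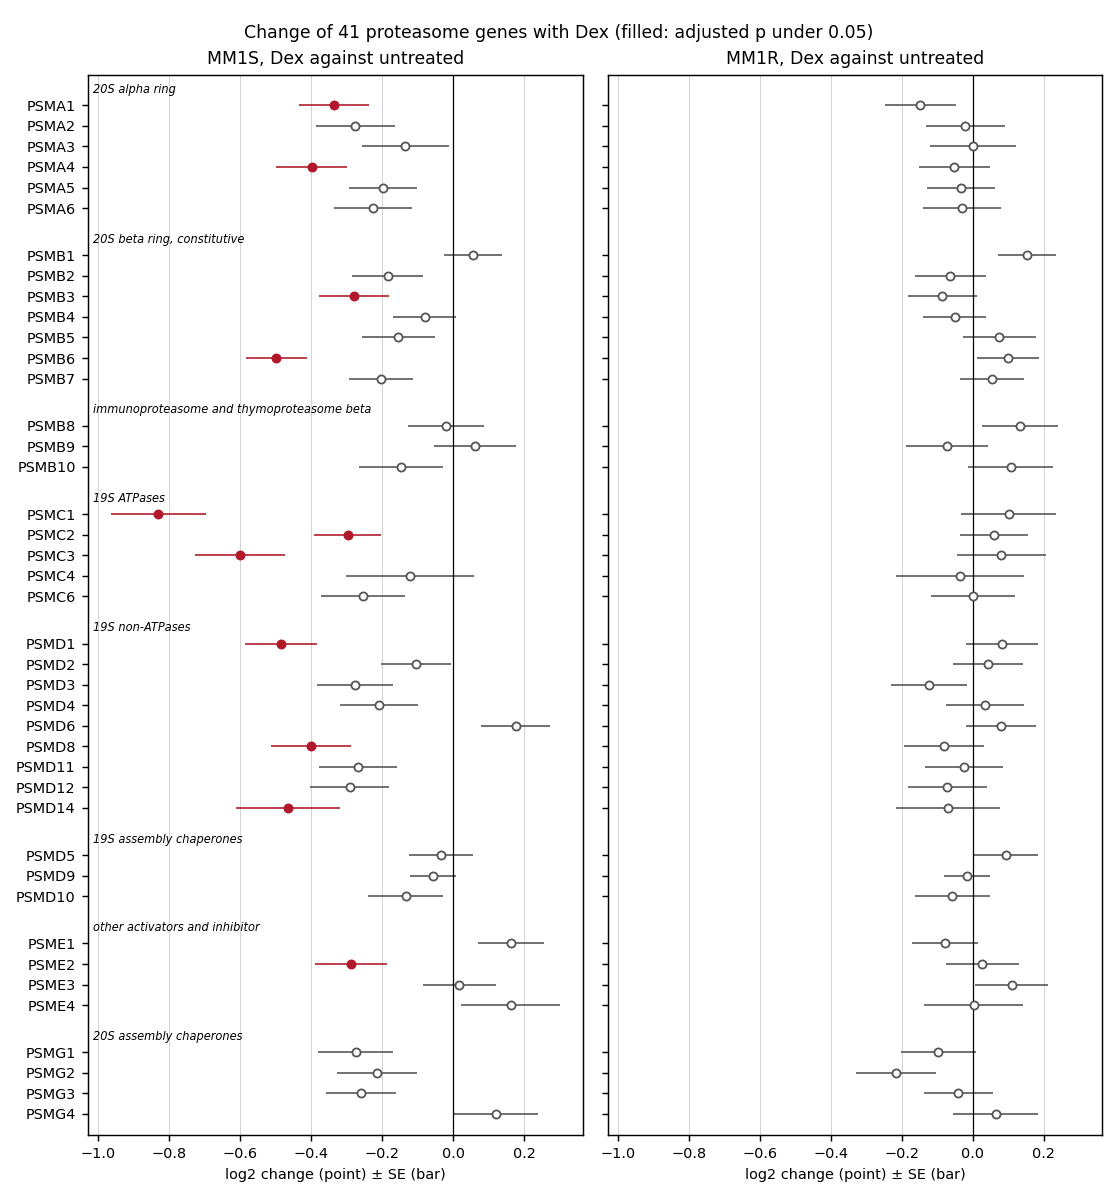
Change of each of the 41 proteasome genes with Dex on the log2 scale, by role, in MM1S cells (left) and MM1R cells (right). Points are fitted changes and bars their SE, and filled points passed an adjusted p of 0.05. In MM1S cells 11 genes fell, with PSMC1 at -0.83, and in MM1R cells none passed.

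The ATPases of the regulatory particle form the ring that unfolds substrates and opens the gate of the core. PSMC1 read 10.89, 10.97 and 11.23 log2 units in Dex-treated MM1S cells, against 11.90, 11.81 and 11.86 in untreated MM1S cells. The 2 groups did not overlap, and the change was -0.83 ± 0.13 (adjusted p = 9.74e-05), which is 1.78-fold lower. A second PSMC1 probe gave -0.72 (adjusted p = 3.57e-05). PSMC3, an ATPase whose tail docks into the core, read 10.67, 10.66 and 10.71 with Dex, against 11.36, 11.13 and 11.35 untreated. Its level was lower on every Dex array, with a change of -0.60 ± 0.13 (adjusted p = 0.00136). PSMC2 fell too, with -0.30 ± 0.09 (adjusted p = 0.0265), while PSMC4 (-0.12 ± 0.18, adjusted p = 0.704) and PSMC6 (-0.25 ± 0.12, adjusted p = 0.136) did not pass.

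Of the non-ATPase subunits, PSMD1, a large scaffold of the base that binds the ubiquitin receptor ADRM1, read 10.05, 10.24 and 9.90 in Dex-treated MM1S cells, against 10.60, 10.50 and 10.55 in untreated MM1S cells. The groups did not overlap, and the change was -0.49 ± 0.10 (adjusted p = 0.00129). PSMD14, the deubiquitinase that removes ubiquitin chains at the lid, read 10.96, 11.08 and 10.78 with Dex, against 11.38, 11.59 and 11.24 untreated, a change of -0.47 ± 0.15 (adjusted p = 0.0256). PSMD8, a lid subunit, changed by -0.40 ± 0.11 (adjusted p = 0.0131). PSMD6, also of the lid, lay on the other side without passing (0.18 ± 0.10, adjusted p = 0.232), and its Dex and untreated arrays overlapped.

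In the core, 1 of the 3 constitutive catalytic subunits passed. PSMB6, which carries the caspase-like site, read 12.67, 12.62 and 12.66 in Dex-treated MM1S cells, against 13.13, 13.09 and 13.22 in untreated MM1S cells. Both groups were tight and apart, with a change of -0.50 ± 0.09 (adjusted p = 2.19e-04). PSMB5, the chymotrypsin-like subunit that bortezomib binds, changed by -0.16 ± 0.10 (adjusted p = 0.326), with overlapping arrays, and PSMB7, the trypsin-like subunit, by -0.20 ± 0.09 (adjusted p = 0.121). Of the other core subunits PSMA4 (-0.40 ± 0.10, adjusted p = 0.00602), PSMA1 (-0.34 ± 0.10, adjusted p = 0.0178) and PSMB3 (-0.28 ± 0.10, adjusted p = 0.0462) fell. All 6 alpha subunits measured were lower with Dex, by 0.135 to 0.399 log2 units, whether or not they passed.

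PSMC1, PSMC3, PSMB6, PSMD1 and PSMA4 kept their fall in MM1S cells whichever of the 12 arrays was left out, and the other 6 lost it at least once. The count was 6 without untreated MM1S replicate 2, and 7 without untreated MM1S replicate 1 or Dex-treated MM1S replicate 1. When the arrays were scaled by the median of all probes in place of quantile normalization, 4 members fell (PSMC1, PSMC3, PSMB6 and PSMD1), which is 9.76% of the members beside 9.41% of all genes fallen and 18.9% risen, so the members' share was near that of all genes. When they were scaled by the median of the probes above background on all arrays, 12 members (29.3%) fell, beside 14.2% of all genes fallen and 13.5% risen. The excess of falls among the members thus depended on the scaling. The second probe gave PSMA4 -0.15 (adjusted p = 0.376) and PSMA1 -0.26 (adjusted p = 0.188), neither of which passed.

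Whether the Dex effect differed between the lines was tested directly. A negative difference (MM1S minus MM1R) was found for 35 of the 41 members, with a median of -0.19 log2 units, against 0.02 over all genes. The Dex effect was called lower in MM1S than in MM1R cells for 4 members (9.76%). That share was near the 8.8% of all genes lower in that difference, with 8.7% higher. The 4 were PSMC1 (-0.93 ± 0.19, adjusted p = 0.00185), PSMC3 (-0.68 ± 0.18, adjusted p = 0.0127), PSMB6 (-0.60 ± 0.12, adjusted p = 0.00202) and PSMD1 (-0.57 ± 0.14, adjusted p = 0.00976). With scaling by the median of all probes 3 members (7.32%) were lower, beside 6.09% of all genes lower and 10.7% higher. The own changes of the 4 in MM1R cells were 0.10 ± 0.13, 0.08 ± 0.13, 0.10 ± 0.09 and 0.08 ± 0.10, and the 95% intervals there ran -0.18 to 0.38, -0.18 to 0.34, -0.08 to 0.28 and -0.13 to 0.30. In Dex-treated MM1R cells PSMC1 read 12.31, 11.63 and 11.75, against 11.78, 11.76 and 11.84 in untreated MM1R cells, and 1 Dex array stood above the other 5. All 4 differences passed whichever array was left out. Scaling by the median of all probes ended the call of PSMD1 (-0.47) and of no other.

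**Figure D2:**
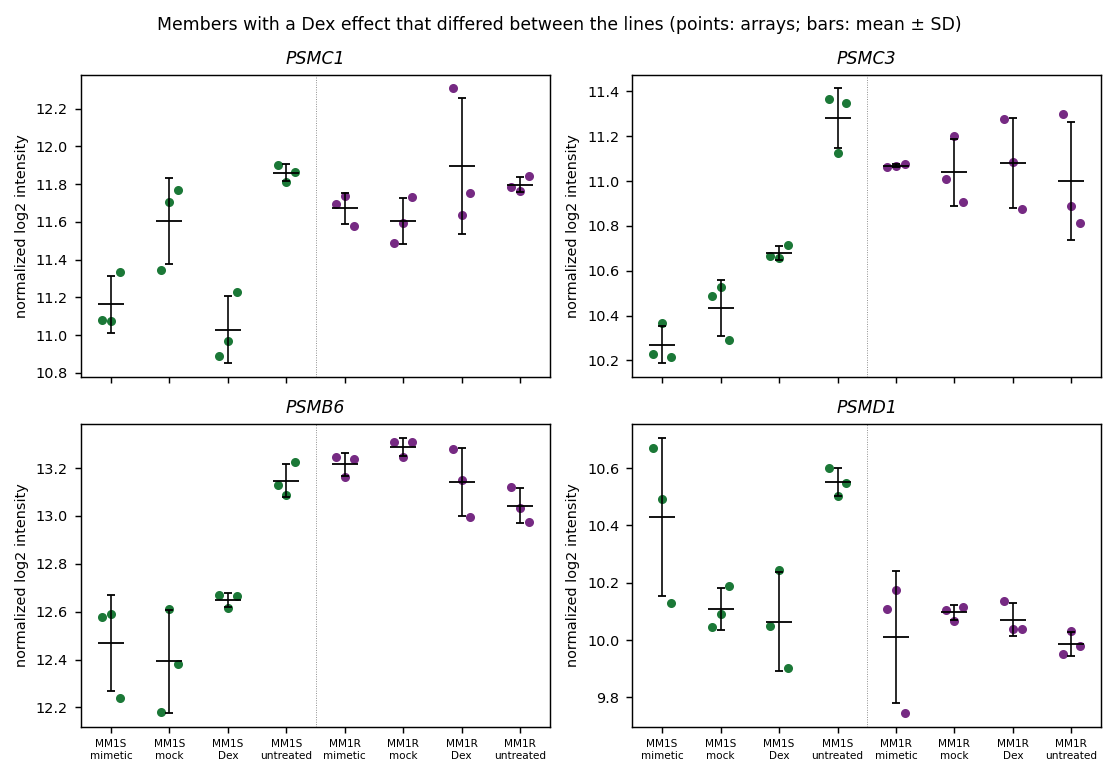
Normalized log2 intensity of PSMC1, PSMC3, PSMB6 and PSMD1 in every array of the 8 groups, with the group mean and SD. Green points are MM1S and purple points MM1R arrays. The 3 Dex arrays of MM1S cells lie under the 3 untreated arrays for each gene, while in MM1R cells the Dex and untreated arrays overlap for PSMC1, PSMC3 and PSMB6 and the Dex arrays of PSMD1 lie slightly higher.

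The promoters of 3 of these 4 genes are shown because their Dex effects differed between the lines. Each window runs 250 bases before to 50 bases after the start of transcription (RefSeq, GRCh38.p14), and capitals mark matches to any of 5 motifs searched on both strands: TGACNNNGC (antioxidant response element), CCAAT (the CCAAT box), GAAA and GAAA 2 bases apart (interferon-stimulated response element), GNACA and TGTNC 3 bases apart (glucocorticoid response element), and GAA, TTC and GAA each 2 bases apart (heat shock element). The PSMC1 window, chr14:90256303-90256602 on the plus strand, held none of them. The PSMC3 window, chr11:47426390-47426689 on the minus strand, held a CCAAT box. The PSMD1 window, chr2:231056617-231056916 on the plus strand, held an antioxidant response element after the start.
PSMC1: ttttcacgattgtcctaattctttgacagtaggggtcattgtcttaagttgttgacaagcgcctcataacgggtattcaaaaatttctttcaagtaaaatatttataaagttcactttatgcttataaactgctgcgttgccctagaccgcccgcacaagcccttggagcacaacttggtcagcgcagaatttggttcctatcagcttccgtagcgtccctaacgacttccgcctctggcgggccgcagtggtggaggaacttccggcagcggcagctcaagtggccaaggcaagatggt
PSMC3: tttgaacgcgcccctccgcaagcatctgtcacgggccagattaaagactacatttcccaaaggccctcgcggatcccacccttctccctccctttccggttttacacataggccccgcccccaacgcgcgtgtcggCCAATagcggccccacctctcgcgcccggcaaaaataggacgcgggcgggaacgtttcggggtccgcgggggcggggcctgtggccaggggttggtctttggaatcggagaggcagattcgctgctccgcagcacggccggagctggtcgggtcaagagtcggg
PSMD1: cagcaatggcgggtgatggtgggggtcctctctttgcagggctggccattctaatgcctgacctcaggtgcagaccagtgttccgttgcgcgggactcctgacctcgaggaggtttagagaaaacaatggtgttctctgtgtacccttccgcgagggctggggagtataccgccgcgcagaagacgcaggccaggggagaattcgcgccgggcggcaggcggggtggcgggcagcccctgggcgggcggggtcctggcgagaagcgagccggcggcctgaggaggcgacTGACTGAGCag
Over the 43 windows of 36 members, the glucocorticoid motif was found in 0, against 0.39% of all 35116 windows in the table, and the heat shock motif in 0, against 0.49%. The antioxidant motif was found in 14 (32.6%, against 13.3% of all windows), the CCAAT box in 17 (39.5%, against 34.6%) and the interferon motif in 7 (16.3%, against 3.57%). These are matches of letters in a fixed window and were not tested against the expression values. PSMB1, PSMB6, PSMB7, PSMD4 and PSMG3 had no window.

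The immunoproteasome subunits and the activator PA28 were next described across all 8 groups. PSMB8, PSMB9 and PSMB10 replace the 3 constitutive catalytic subunits, and PSME1 and PSME2 form PA28, a cap that opens the core without ubiquitin. With Dex the 3 immunoproteasome subunits did not pass in MM1S cells: PSMB8 changed by -0.02 ± 0.11 (adjusted p = 0.923), PSMB9 by 0.06 ± 0.12 (adjusted p = 0.773) and PSMB10 by -0.15 ± 0.12 (adjusted p = 0.439), with 95% intervals of -0.24 to 0.20, -0.18 to 0.30 and -0.40 to 0.10. Of the PA28 partners, PSME2 fell and PSME1 did not pass. PSME1 read 12.39, 12.39 and 12.47 with Dex, against 12.32, 12.23 and 12.21 untreated, a difference of 0.16 ± 0.09 (adjusted p = 0.244). PSME2 read 11.46, 11.56 and 11.79 with Dex, against 11.84, 11.93 and 11.90 untreated, a change of -0.29 ± 0.10 (adjusted p = 0.0473). The arrays of the 2 groups did not overlap for either gene, and the call of PSME2 was lost when any of 7 single arrays was left out. In MM1R cells none of the 5 passed, with changes of 0.13 ± 0.11, -0.07 ± 0.12, 0.11 ± 0.12, -0.08 ± 0.09 and 0.03 ± 0.10.

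The interferon motif was present in the windows of 4 of these 5 genes, which are shown with 20 bases on each side of the match in capitals. The stretches are chr6:32844022-32844071 (minus strand, PSMB8), chr16:67936842-67936891 (minus strand, PSMB10), chr14:24136179-24136228 (plus strand, PSME1) and chr14:24146609-24146658 (minus strand, PSME2). The PSMB9 window had no match to it.
PSMB8: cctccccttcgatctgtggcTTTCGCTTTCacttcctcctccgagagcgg
PSMB10: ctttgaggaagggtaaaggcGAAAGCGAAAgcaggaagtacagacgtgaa
PSME1: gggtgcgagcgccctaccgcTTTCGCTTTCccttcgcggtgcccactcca
PSME2: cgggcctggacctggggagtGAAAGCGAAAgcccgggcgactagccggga

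**Figure D3:**
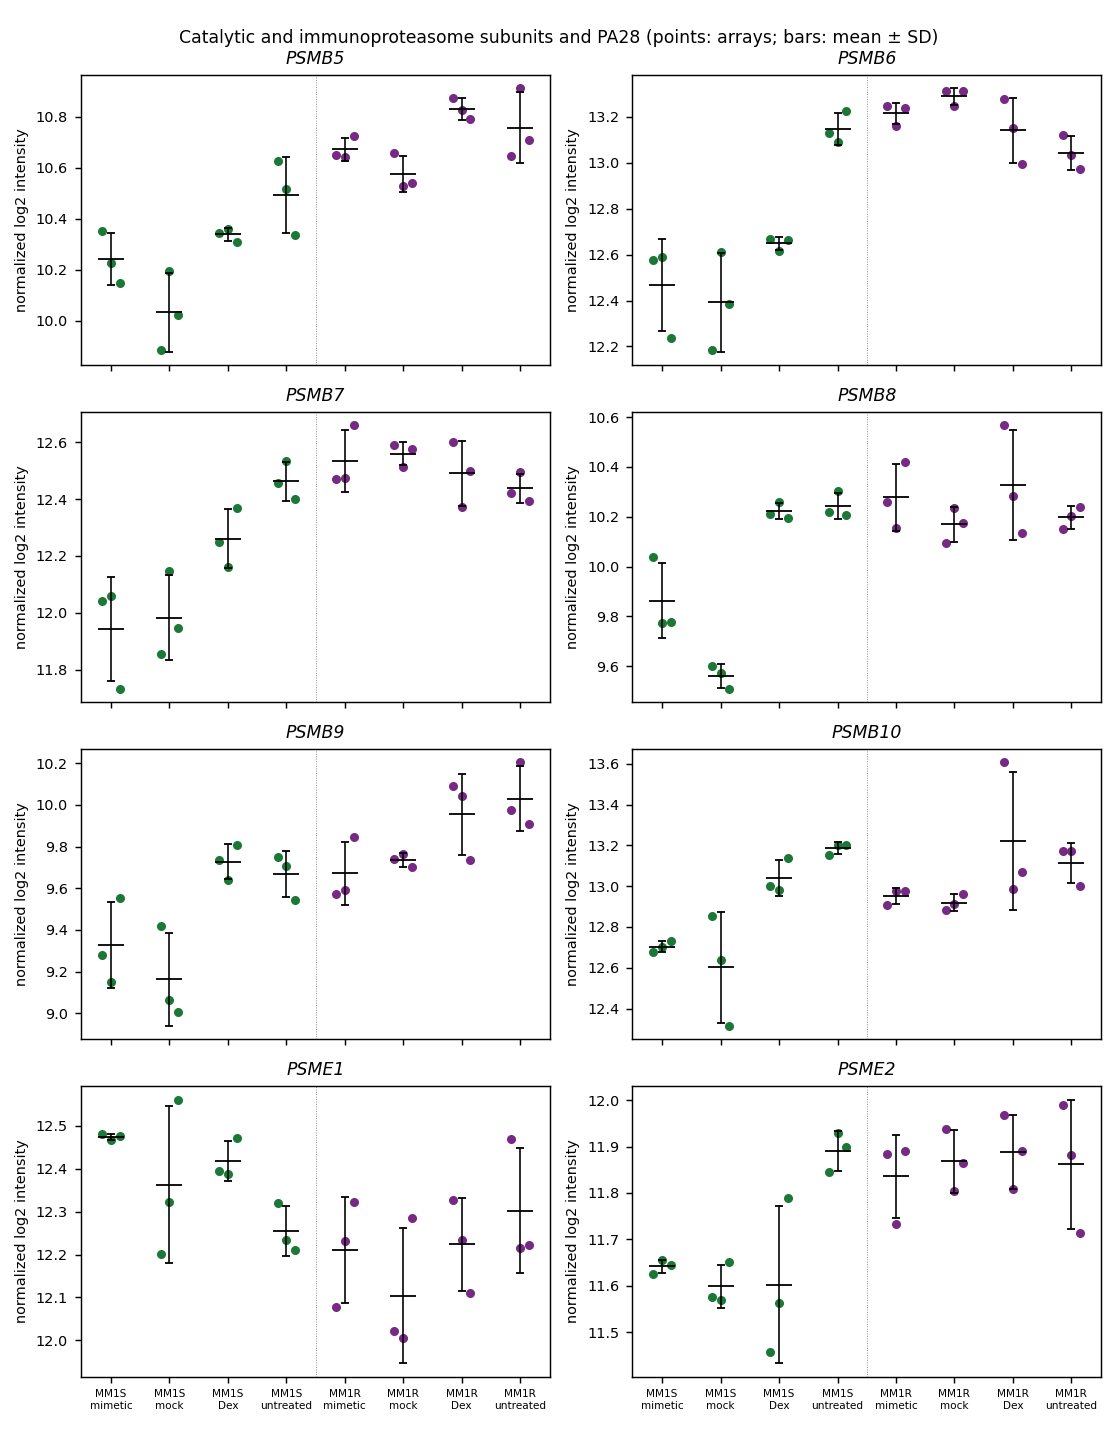
Normalized log2 intensity of the constitutive catalytic subunits (PSMB5, PSMB6, PSMB7), the immunoproteasome subunits (PSMB8, PSMB9, PSMB10) and PA28 (PSME1, PSME2) in every array, with the group mean and SD. Levels compare across groups within a gene only. Mock MM1S arrays lie under untreated MM1S arrays for the 6 beta subunits on this quantile scale, but for PSMB5 the mean change is 0.04 in the other direction when arrays are scaled by the median of all probes.

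The 2 lines were then compared without drug. In untreated cells 3 of the 41 members were lower in MM1R than in MM1S cells and 0 were higher, beside 4.27% of all genes lower and 5.24% higher. With scaling by the median of all probes 2 members were lower and 1 higher, beside 2.67% of all genes lower and 4.66% higher. PSMA2, an alpha subunit, read 9.22, 9.12 and 9.14 in MM1R cells, against 9.76, 9.80 and 9.66 in MM1S cells (-0.58 ± 0.11, adjusted p = 0.00225). PSMD1 read 9.95, 10.03 and 9.98 in MM1R cells, against 10.60, 10.50 and 10.55 in MM1S cells (-0.56 ± 0.10, adjusted p = 0.00122). Untreated MM1R cells thus had PSMD1 at about the level of Dex-treated MM1S cells. PSMA4 was the third, with -0.40 ± 0.10 (adjusted p = 0.0183), a call that was lost without MM1R replicate 1 or 2 or MM1S replicate 2 and by its second probe (-0.27, adjusted p = 0.157). The catalytic subunits PSMB5 (0.26 ± 0.10, adjusted p = 0.13), PSMB6 (-0.11 ± 0.09, adjusted p = 0.531) and PSMB7 (-0.03 ± 0.09, adjusted p = 0.909) did not pass, nor did PSMB8 (-0.05 ± 0.11, adjusted p = 0.851), PSMB10 (-0.07 ± 0.12, adjusted p = 0.787), PSME1 (0.05 ± 0.09, adjusted p = 0.825) or PSME2 (-0.03 ± 0.10, adjusted p = 0.912). PSMB9 read 9.97, 10.20 and 9.91 in MM1R cells, against 9.75, 9.71 and 9.54 in MM1S cells. Its groups did not overlap, the difference missed the threshold (0.36 ± 0.12, adjusted p = 0.0585), and it passed without Dex-treated MM1R replicate 1 or 3 or untreated MM1R replicate 3 (4 members called in each case). Its second probe gave 0.10 (adjusted p = 0.587).

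The mimetic was compared with mock transfection. In MM1S cells 0 of the 41 members passed, with 2 higher and 1 lower at an unadjusted p under 0.05, beside 0.145% of all 12379 genes tested risen and 0.42% fallen. Without the third mimetic array PSMC1 fell by 0.53 ± 0.14 log2 units (adjusted p = 0.0191) and PSMD1 rose by 0.47 ± 0.15 (adjusted p = 0.0359), beside 9.4% of all genes risen and 9.66% fallen. PSMC1 read 11.08, 11.08 and 11.34 in MM1S mimetic cells, against 11.35, 11.71 and 11.77 in MM1S mock cells, and the 2 groups did not overlap. PSMD1 read 10.67, 10.49 and 10.13 with the mimetic, against 10.04, 10.09 and 10.19 with mock, so mimetic replicate 3 lay within the mock range. With weights for each array, chosen from the data by limma, 5 members (12.2%) rose and 3 (7.32%) fell, beside 19.1% of all genes risen and 16.2% fallen.

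In MM1R cells 0 members passed with the mimetic and 0 had an unadjusted p under 0.05, beside 0.0% of all genes risen and 0.0% fallen. Some genes varied widely within these groups. PSMD3 read 9.18, 8.67 and 8.95 in MM1R mimetic cells, against 9.18, 9.25 and 8.64 in MM1R mock cells. Others varied less, such as PSMB6, with 13.25, 13.16 and 13.24 against 13.31, 13.25 and 13.31. The distances between arrays were measured for MM1S mimetic and mock arrays only. The difference of the mimetic effect between the lines passed for 0 members (1 at an unadjusted p under 0.05, negative), beside 0.0% and 0.0% of all genes, and for 0 without the third MM1S mimetic array, beside 3.8% and 5.29%. For PSMC1 it was -0.51 ± 0.20. None of the catalytic, immunoproteasome or PA28 subunits passed in MM1S cells, where PSMB5 changed by 0.21 ± 0.13 (adjusted p = 0.411), PSMB6 by 0.08 ± 0.12 (adjusted p = 0.798), PSMB7 by -0.04 ± 0.12 (adjusted p = 0.904), PSMB8 by 0.30 ± 0.13 (adjusted p = 0.216), PSMB9 by 0.17 ± 0.15 (adjusted p = 0.594) and PSMB10 by 0.10 ± 0.12 (adjusted p = 0.715), and PSME1 and PSME2 by 0.11 ± 0.12 and 0.04 ± 0.11. PSMB8 read 10.04, 9.77 and 9.78 with the mimetic, against 9.60, 9.57 and 9.51 with mock, with no overlap. In MM1R cells these 8 genes changed by between -0.07 and 0.11. The MM1S changes of these 8 genes and the PSMC1 difference are given with all 3 mimetic arrays only. On MM1S mimetic replicates 1, 2 and 3, PSMB7 lay 0.06, 0.08 and -0.25 log2 units from the MM1S mock mean. PSMB6 lay 0.18, 0.20 and -0.155 from it, whereas PSMB9 was highest on replicate 3 (0.12, -0.01 and 0.39).

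Because mock and untreated cells of a line were both deposited, they were set side by side. On the quantile scale 20 of the 41 members were lower and 1 was higher in mock than in untreated MM1S cells, that is 48.8% of the members lower, beside 13.7% of all 13283 genes lower and 15.5% higher. The result depended on the scaling. With arrays scaled by the median of all probes, the median of all genes moved to 0.21 log2 units, and 12 members (29.3%) were higher and 4 (9.76%) lower, beside 43.2% of all genes higher and 2.93% lower. With arrays scaled by the median of the probes above background on all arrays it moved to -0.26, with 2 members (4.88%) higher and 21 (51.2%) lower, beside 11.4% of all genes higher and 50.5% lower. The share of members lower thus stood above that of all genes under the first 2 scalings and near it under the last, and the share higher stood below that of all genes under each. Relative to the median of all genes the members' median was -0.26 on the quantile scale and -0.06 under both of the other scalings. Those 2 scalings differ only by a constant per array, so this value is the same in both by construction. Mock MM1S arrays had 20111 to 21280 probes above background, against 18561 to 19111 on untreated MM1S arrays, and the part of this in the result was not tested.

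Under all 3 scalings 4 members were lower in mock than in untreated MM1S cells and 1 was higher. PSMD8 read 8.95, 9.23 and 8.57 in mock MM1S cells, against 10.10, 10.24 and 10.07 in untreated MM1S cells. The groups lay apart, with a difference of -1.22 ± 0.15 (adjusted p = 3.36e-06) on the quantile scale and -0.72 with scaling by the median of all probes. PSMD4, a ubiquitin receptor of the regulatory particle, read 11.44, 11.54 and 11.47 in mock cells, against 12.36, 12.38 and 12.36 untreated (-0.88 ± 0.14, adjusted p = 3.94e-05, and -0.42 with median scaling). PSMC3 differed by -0.85 ± 0.13 (adjusted p = 3.29e-05) and PSMB6 by -0.76 ± 0.11 (adjusted p = 1.38e-05), with -0.36 and -0.35 under median scaling. PSMG2, which pairs with PSMG1 to assemble the alpha ring, was the member that was higher, with 11.32, 11.63 and 11.81 in mock cells, against 11.15, 11.18 and 11.14 untreated (0.43 ± 0.14, adjusted p = 0.0255). Its call was lost when any of 5 single arrays of the 24 was left out.

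The other catalytic subunits were lower on the quantile scale in mock than in untreated MM1S cells, with -0.46 ± 0.11 (adjusted p = 0.00331) for PSMB5, -0.48 ± 0.11 (adjusted p = 0.0014) for PSMB7, -0.68 ± 0.12 (adjusted p = 1.10e-04) for PSMB8, -0.50 ± 0.13 (adjusted p = 0.00613) for PSMB9 and -0.58 ± 0.12 (adjusted p = 0.00102) for PSMB10, whereas with scaling by the median of all probes the 5 values were 0.04, -0.05, -0.18, -0.00107 and -0.19 and none passed. PSME2 likewise was lower on the quantile scale (-0.29 ± 0.10, adjusted p = 0.037) and 0.13 with median scaling, and PSME1 did not pass (0.11 ± 0.11, adjusted p = 0.506). PSMG4, another core chaperone, was -0.74 ± 0.14 (adjusted p = 3.48e-04) by its main probe, but its second probe gave -0.03. PSMB9's second probe gave -0.06, and that of PSMB8 -0.64.

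**Figure D4:**
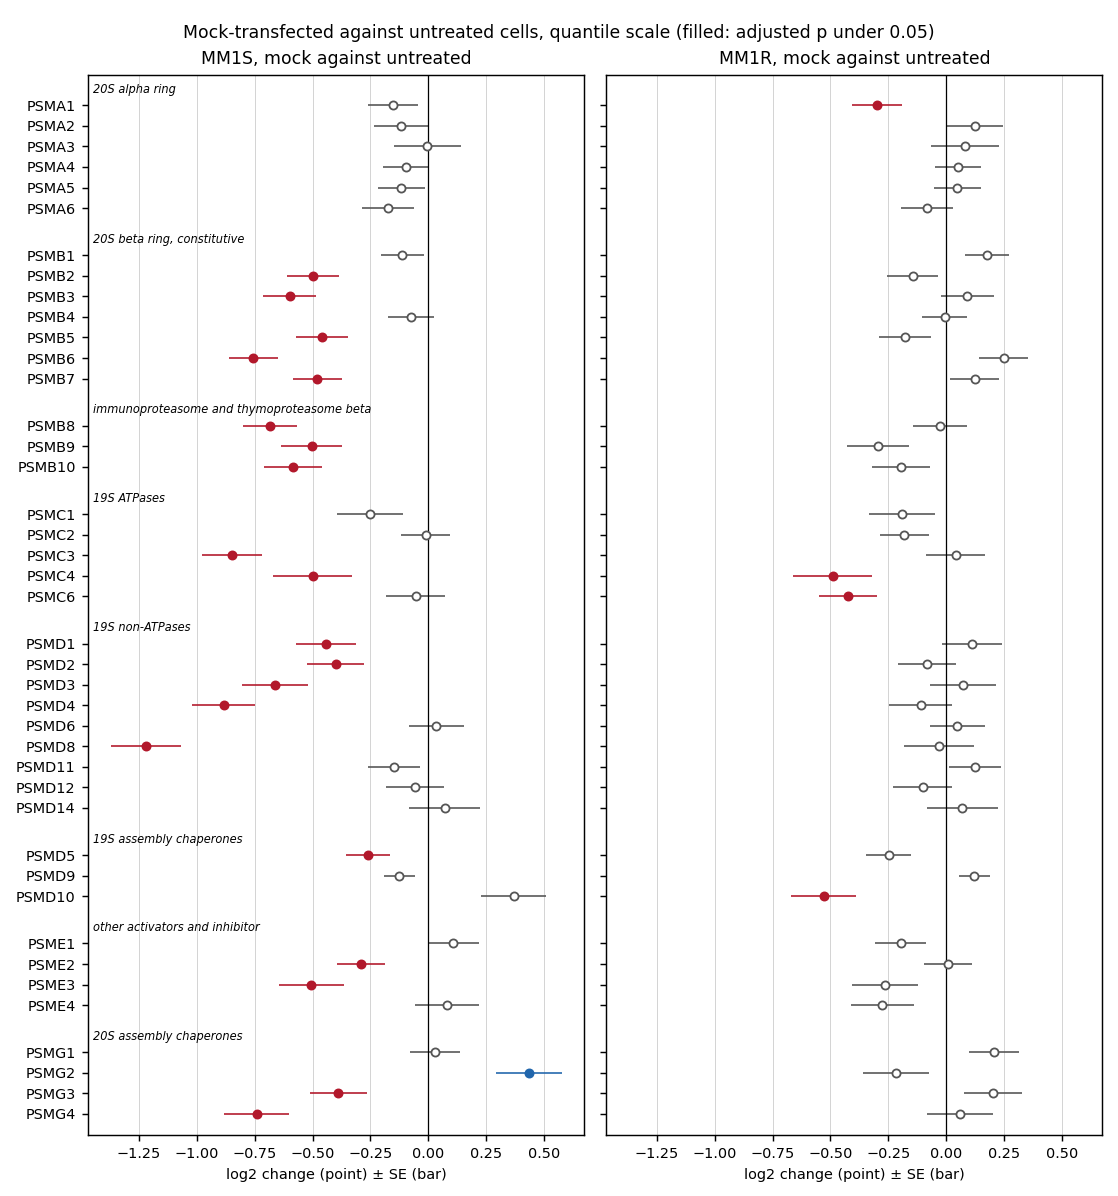
Difference between mock-transfected and untreated cells of each of the 41 proteasome genes on the quantile-normalized log2 scale, by role, in MM1S (left) and MM1R cells (right), with SE bars and filled points at an adjusted p under 0.05. In MM1S cells 20 genes were lower and 1 higher on this scale, but 12 were higher and 4 lower with arrays scaled by the median of all probes, where 43.2% of all genes were higher and 2.93% lower. In MM1R cells 4 were lower on this scale, against 3 higher with that scaling.

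In MM1R cells 4 members were lower and 0 higher in mock than in untreated cells on the quantile scale, beside 9.03% of all genes lower and 9.37% higher. They were PSMD10 or gankyrin, a chaperone of the regulatory particle (-0.53 ± 0.14, adjusted p = 0.00812), PSMC4 (-0.49 ± 0.17, adjusted p = 0.0414), PSMC6 (-0.42 ± 0.13, adjusted p = 0.0172) and PSMA1 (-0.30 ± 0.11, adjusted p = 0.0478). None of the 4 passed with scaling by the median of all probes, where 3 other members were higher and 0 lower, beside 13.5% of all genes higher and 2.73% lower. The second probe of PSMC6 passed in the other direction (0.20, adjusted p = 0.0371). Those of PSMC4 (-0.29, adjusted p = 0.156) and PSMA1 (-0.46, adjusted p = 0.0927) did not pass, and that of PSMD10 did (-0.81, adjusted p = 1.18e-04). With each of the 24 arrays left out in turn, the call of PSMA1 was kept 7 times, that of PSMC4 19 times and those of PSMC6 and PSMD10 22 times each. Without mock MM1R replicate 2, 0 members were called, 1 without untreated MM1R replicate 1 or 2, and 2 without mock MM1R replicate 1. PSMB5, PSMB6 and PSMB7 differed by -0.18 ± 0.11, 0.25 ± 0.11 and 0.12 ± 0.11, PSMB8, PSMB9 and PSMB10 by -0.03 ± 0.12, -0.29 ± 0.13 and -0.19 ± 0.12, and PSME1 and PSME2 by -0.20 ± 0.11 and 0.01 ± 0.10, and none passed. The second probe of PSME1 did pass, in the other direction (0.18, adjusted p = 0.0191).

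The difference of the mock effect between the lines, a comparison added after the data were seen, was lower in MM1S cells for 11 members and higher for 2 on the quantile scale, beside 8.81% of all genes lower and 10.1% higher. PSMD8 (-1.19 ± 0.21, adjusted p = 4.39e-04), PSMB6 (-1.002 ± 0.15, adjusted p = 7.39e-05) and PSMC3 (-0.89 ± 0.18, adjusted p = 0.00149) were lower, and PSMD10 (0.90 ± 0.20, adjusted p = 0.00261) and PSMG2 (0.65 ± 0.20, adjusted p = 0.0265) higher, under all 3 scalings. For PSMB6 the own effects were -0.76 ± 0.11 in MM1S and 0.25 ± 0.11 in MM1R cells. For PSMD10, which read 11.11, 11.30 and 11.41 in mock and 10.92, 10.98 and 10.82 in untreated MM1S cells, and 10.50, 10.42 and 10.85 in mock and 11.18, 11.28 and 10.90 in untreated MM1R cells, the level was higher with mock in MM1S cells without passing (0.37 ± 0.14, adjusted p = 0.052) and lower in MM1R cells. The MM1S value passed without MM1S mimetic replicate 3 (adjusted p = 0.0389). It also passed without MM1S mock replicate 1, MM1R untreated replicate 3, MM1R mimetic replicate 1 or 2, or MM1R mock replicate 3. For the difference a second PSMD10 probe gave 0.92, with 0.12 (adjusted p = 0.577) in MM1S and -0.81 in MM1R cells. Under scaling by the median of all probes the median of all genes in this difference was 0.12, and 4 members were higher and 3 lower, beside 18.7% of all genes higher and 3.38% lower.

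Among mock-transfected cells 13 members were higher and 3 lower in MM1R than in MM1S cells on the quantile scale, beside 15.3% of all genes higher and 17.8% lower. The higher ones included 5 of 7 constitutive and 2 of 3 immunoproteasome beta subunits, and 0 of 6 alpha subunits measured. PSMB6 read 13.31, 13.25 and 13.31 in MM1R mock cells, against 12.18, 12.61 and 12.38 in MM1S mock cells, a difference of 0.90 ± 0.12 (adjusted p = 1.36e-04). PSMB5 differed by 0.54 ± 0.13 (adjusted p = 0.00497), PSMB7 by 0.58 ± 0.12 (adjusted p = 0.00284), PSMB8 by 0.61 ± 0.13 (adjusted p = 0.00255) and PSMB9 by 0.57 ± 0.15 (adjusted p = 0.00806), whose second probe gave 0.03. PSMB10 (0.32 ± 0.12, adjusted p = 0.0568), PSME1 (-0.26 ± 0.12, adjusted p = 0.132) and PSME2 (0.27 ± 0.11, adjusted p = 0.0753) did not pass.

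Of the 13 higher members, the 5 with the largest differences were PSMB6, PSMG4 (0.99 ± 0.16, adjusted p = 3.53e-04, with 0.04 by its second probe), PSMD8 (0.90 ± 0.17, adjusted p = 0.00143), PSMD3 (0.73 ± 0.16, adjusted p = 0.00393), a lid subunit, and PSMD4 (0.71 ± 0.15, adjusted p = 0.00311), and the 3 lower ones were PSMD10 (-0.68 ± 0.17, adjusted p = 0.00616), PSMG2 (-0.65 ± 0.16, adjusted p = 0.00768) and PSMC6 (-0.39 ± 0.13, adjusted p = 0.0375, with 0.06 by its second probe and its call lost when any of 6 single arrays was left out). With scaling by the median of all probes the median of all genes moved to -0.12, and 6 members (14.6%) were higher and 8 (19.5%) lower, beside 6.16% and 27.6% of all genes. With the probes above background on all arrays it moved to 0.17, and 18 (43.9%) were higher and 4 (9.76%) lower, beside 30.9% and 13.4%. Relative to the median of all genes, the members' median was 0.07, -0.01 and -0.01 in the 3 scalings. PSMB3, PSMB6, PSMD3, PSMD4, PSMD8 and PSMG4 were higher and PSMC6, PSMD10 and PSMG2 lower in all 3. No member was called in both the untreated and the mock comparison of the lines, and 20 of the 41 members had the same sign in both, which share no array.

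**Figure D5:**
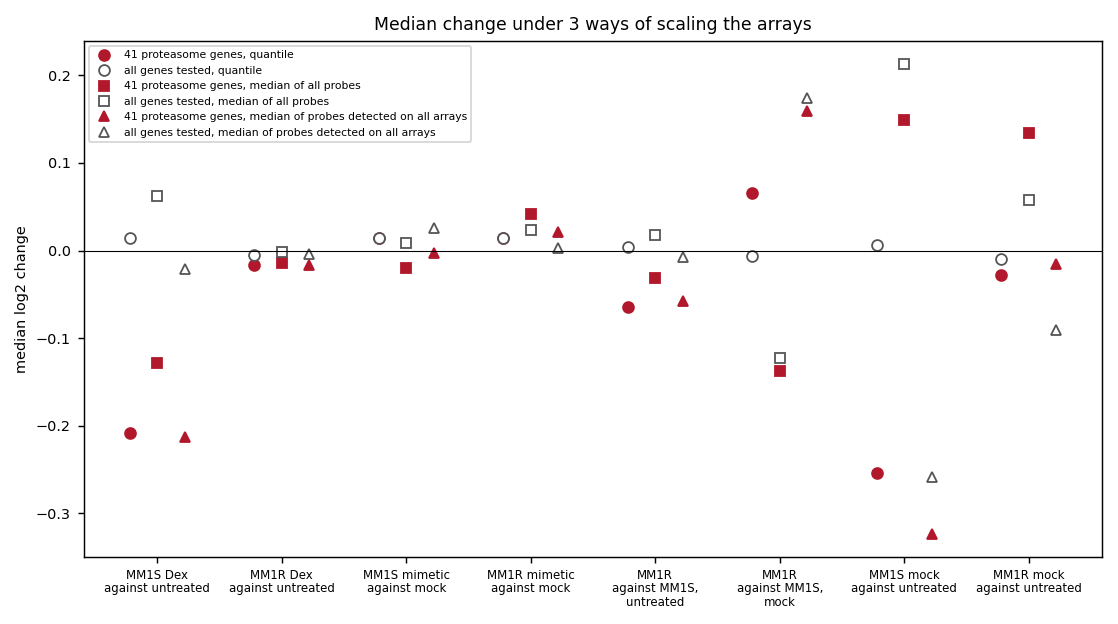
Median log2 change of the 41 proteasome genes (red) and of all genes tested (open grey) in 8 comparisons under 3 scalings of the arrays. With Dex in MM1S cells the proteasome genes lie under all genes in each scaling (-0.21, -0.13 and -0.21), while in mock against untreated MM1S cells the proteasome median is -0.25, 0.15 and -0.32, so its direction turns with the scaling.

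Partner genes of the proteasome, from lists chosen with earlier results of these data known, were read in the same fits, on the quantile scale. In the mock comparisons the shares of all genes called moved with the scaling. With Dex in MM1S cells 13.5% of all genes fell and 14.3% rose, which stands beside the counts of each list in that comparison. Of the proteasome-associated proteins 2 of 9 fell and 1 rose. UCHL5, a deubiquitinase bound to the regulatory particle, fell (-0.47 ± 0.11, adjusted p = 0.00264), as did POMP, the chaperone that matures the core (-0.33 ± 0.11, adjusted p = 0.032). ECPAS, a scaffold on the proteasome, rose by 0.41 ± 0.13 (adjusted p = 0.0222). Of 11 genes of ubiquitin supply and shuttling 2 fell, the polyubiquitin gene UBB (-0.36 ± 0.09, adjusted p = 0.00659) and the receptor SQSTM1 (-0.25 ± 0.09, adjusted p = 0.048). The UBB change differed between the lines (-0.45 ± 0.13, adjusted p = 0.0245), while that of POMP missed the threshold (-0.25 ± 0.15, adjusted p = 0.328). HLA-B was the 1 of 8 antigen processing genes that fell (-0.52 ± 0.12, adjusted p = 0.00301), and TAP1 (-0.04 ± 0.10, adjusted p = 0.816) and TAP2 (-0.13 ± 0.10, adjusted p = 0.437), neighbours of PSMB8 and PSMB9 in the MHC region, did not pass.

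None of the 7 regulators of proteasome transcription passed with Dex in MM1S cells. NFE2L1, which drives proteasome genes when proteasome activity is low, changed by 0.02 ± 0.10 (adjusted p = 0.902) and HSF1, the heat shock factor, by 0.13 ± 0.12 (adjusted p = 0.51). In mock against untreated MM1S cells, NFE2L1 differed by 1.77 ± 0.26 (adjusted p = 2.55e-05), higher with mock, as was NFE2L2, the antioxidant response factor (1.25 ± 0.16, adjusted p = 5.23e-06). NFE2L1 read 10.71, 11.03 and 11.19 in mock, against 9.19, 9.26 and 9.16 in untreated MM1S cells, and 9.16, 9.07 and 10.94 in MM1S mimetic cells, where replicate 3 lay with the mock arrays and the others with the untreated ones. HSF1 did not pass there (-0.16 ± 0.12, adjusted p = 0.334). NFE2L1 was 0.60 ± 0.26 (adjusted p = 0.112) in mock against untreated MM1R cells, and its difference between the lines passed (1.17 ± 0.37, adjusted p = 0.0301). In MM1R against MM1S mock cells NFE2L2 was lower (-1.51 ± 0.20, adjusted p = 8.92e-05) and HSF1 higher (0.31 ± 0.10, adjusted p = 0.0254). MAFG, a small MAF partner of these factors, was higher there (0.65 ± 0.13, adjusted p = 0.00213) and in mock against untreated MM1R cells (0.49 ± 0.12, adjusted p = 0.00508), whereas NGLY1, which deglycosylates NFE2L1, was lower in both (-0.57 ± 0.13, adjusted p = 0.00475 and -0.40 ± 0.12, adjusted p = 0.0163).

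VCP, the segregase that hands substrates to the proteasome, was lower in mock than in untreated MM1S cells (-0.95 ± 0.13, adjusted p = 7.88e-06), as was SQSTM1 (-0.80 ± 0.10, adjusted p = 4.19e-06). Of 11 ubiquitin genes 6 were lower and 2 higher there on the quantile scale, beside 13.7% of all genes lower and 15.5% higher. With scaling by the median of all probes 43.2% of all genes were higher and 2.93% lower. With the probes above background on all arrays 11.4% were higher and 50.5% lower. The counts and values of the ubiquitin genes are given on the quantile scale only, so they cannot be set against the shares under those 2 scalings. VCP (1.00 ± 0.14, adjusted p = 1.92e-04) and SQSTM1 (0.74 ± 0.12, adjusted p = 3.82e-04) were higher in MM1R than in MM1S mock cells. In that comparison 15.3% of all genes were higher and 17.8% lower, and of the ubiquitin genes 6 were higher and 1 lower. The lower one was UBQLN2, a shuttle that carries ubiquitylated proteins (-0.57 ± 0.13, adjusted p = 0.00347), which with UBA6, a second ubiquitin-activating enzyme, was higher in mock than in untreated MM1S cells (0.33 ± 0.12, adjusted p = 0.043 and 0.60 ± 0.12, adjusted p = 6.37e-04). In mock against untreated MM1R cells 3 of the 11 were higher and 0 lower, beside 9.37% of all genes higher and 9.03% lower. Among the 3 were NPLOC4, a VCP cofactor (0.54 ± 0.13, adjusted p = 0.00325), and RAD23B, another shuttle (0.51 ± 0.13, adjusted p = 0.00536). NPLOC4 read 9.48, 9.51 and 9.01 in mock MM1R cells, against 8.83, 8.73 and 8.84 untreated, so mock replicate 3 lay nearest to the untreated arrays. UBA1, the main ubiquitin-activating enzyme, was higher in untreated MM1R than MM1S cells (0.47 ± 0.10, adjusted p = 0.00645), and TXNL1, a thioredoxin-like proteasome partner, lower (-0.45 ± 0.11, adjusted p = 0.0142). Of the 9 proteasome-associated proteins 2 were higher and 3 lower in mock than in untreated MM1R cells. The higher ones were POMP (0.39 ± 0.11, adjusted p = 0.0137) and ADRM1, and the lower ones included UCHL5 and USP14. In mock against untreated MM1S cells 0 of the 9 were higher and 2 lower (ADRM1 and SEM1). Between mock lines 2 were higher (ADRM1 and SEM1) and 2 lower (TXNL1 and USP14) in MM1R cells. The shares of all genes in these 3 comparisons are those given above. TAP1 and TAP2 were -0.22 ± 0.13 (adjusted p = 0.214) and 0.29 ± 0.16 (adjusted p = 0.199) in mock against untreated MM1S cells, and a second TAP2 probe passed in the other direction (-0.47, adjusted p = 0.0387). Of the plasma cell markers, 3 were higher (such as IRF4, 1.17 ± 0.27, adjusted p = 0.00241, and PRDM1, 0.70 ± 0.14, adjusted p = 6.40e-04) and 2 lower (SDC1, -0.69 ± 0.13, adjusted p = 2.30e-04, and MZB1, -0.37 ± 0.13, adjusted p = 0.0435) in mock than in untreated MM1S cells, with a summed level of 16.20 to 16.38 and 16.06 to 16.24 log2 units, and 2 were higher and 2 lower in MM1R than in MM1S mock cells. Among markers of other cell types, 1 of 5 monocyte markers was higher in mock than in untreated MM1S cells (FCGR3A, 0.23 ± 0.08, adjusted p = 0.0251), where the summed level of the 5 ran from 9.84 to 10.23 on mock and from 10.04 to 10.19 on untreated arrays. Likewise 2 of 5 monocyte markers were higher in mock than in untreated MM1R cells, CD68 by 1.08 ± 0.23 (adjusted p = 0.00131) and FCGR3A by 0.47 ± 0.08 (adjusted p = 7.35e-05), and the summed level of the 5 ran from 10.26 to 10.77 log2 units on mock and from 9.86 to 9.99 on untreated MM1R arrays. CD68 was also higher in MM1R than in MM1S mock cells (1.08 ± 0.25, adjusted p = 0.00487). It read 10.09, 10.17 and 9.29 in mock MM1R cells, against 8.68, 8.67 and 8.96 untreated, so mock replicate 3 lay below the other mock arrays. CSF1R and LYZ of that list were above background on 4 and 3 arrays, and the part of these lists in the proteasome results was not tested.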

How the data were processed

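RNA of MM1S and MM1R cells was hybridised to Illumina HumanHT-12 arrays. The authors summarized bead intensities with beadarray 2.8.1 and deposited them as log2 values before normalization, each with a detection p-value deposited by the authors beside it. They also deposited a quantile-normalized intensity table, on the log2 scale, that served as an alternative (limma 3.14.1 is named in their methods). The genome build was not given in the sources used here. No background correction is stated and none was made. No read depth applies, and 3 arrays per group limit the precision.

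Of 47224 probes 30106 carried 1 gene symbol and 8 several, and 4 were left out for a missing value. The 24 arrays were quantile normalized together with limma 3.58.1 in R 4.3.3, and plots drawn with matplotlib in Python. The result differed from the authors' table by 0.000138 log2 units at the median probe. Tests covered probes above background (detection p-value under 0.05) on 3 or more of the arrays fitted. Dex and transfection arrays were each fitted as 4 groups (lmFit, eBayes with trend), and mock against untreated in a fit of all 24 arrays, with Benjamini-Hochberg adjustment over all probes (21486 in the Dex fit). Each gene was represented by its brightest such probe, and counts are of genes at an adjusted p under 0.05. The fits were tested on simulated data.

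The genes to name were the catalytic, immunoproteasome and PA28 subunits, up to 5 called members each way with the largest change, up to 2 called genes each way with the smallest adjusted p from each partner list, and NFE2L1, HSF1, POMP, TAP1 and TAP2. Not all of their values are printed for every comparison. Those left out include PSMB5 and PSMB7 with Dex in MM1R cells and HLA-B in the difference of the Dex effect. Other members (such as PSMC2, PSMD6, PSMB3 and PSMG3) were named after their values were seen. Members and lists were chosen with earlier results of these data known. Alternatives were normexp correction (offset 16), 2 median scalings, the authors' normalized values, no filter, fits of only the compared groups or of all 24 arrays, weighted arrays, replicate blocks, fold limits of 1.5 and 2, a second probe (17 members), and leaving out each array. The second median scaling, the limit of 2 and the difference of the mock effect were added after seeing the data. Promoter windows were RefSeq's for GRCh38.p14, and the sequence of miR-150-5p is not shown here.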

Additional observations from a re-analysis of the deposited data

Results flagged for a closer look

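The Dex effect differed between the lines, in a test of the difference itself (limma, Benjamini-Hochberg adjustment over all probes), for 4 of the 41 members, all with the lower value in MM1S cells (9.76% of the members, beside 8.8% of all genes): PSMC1 by -0.93 ± 0.19 (adjusted p = 0.00185), PSMC3 by -0.68 ± 0.18 (adjusted p = 0.0127), PSMB6 by -0.60 ± 0.12 (adjusted p = 0.00202) and PSMD1 by -0.57 ± 0.14 (adjusted p = 0.00976) log2 units (MM1S minus MM1R).

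The mock effect differed between the lines in the same kind of test, on the quantile scale, for 13 members, 26.8% of them lower and 4.88% higher in MM1S cells, beside 8.81% and 10.1% of all genes. With scaling by the median of all probes 3 were lower and 4 higher, beside 3.38% and 18.7% of all genes. On the quantile scale it was lower in MM1S cells for PSMD8 (-1.19 ± 0.21, adjusted p = 4.39e-04), PSMB6 (-1.002 ± 0.15, adjusted p = 7.39e-05), PSMC3 (-0.89 ± 0.18, adjusted p = 0.00149), PSMG4 (-0.80 ± 0.20, adjusted p = 0.00646), PSMD4 (-0.77 ± 0.19, adjusted p = 0.00672), PSMD3 (-0.73 ± 0.20, adjusted p = 0.0133), PSMB3 (-0.69 ± 0.16, adjusted p = 0.00409), PSMB8 (-0.65 ± 0.16, adjusted p = 0.0067), PSMB7 (-0.60 ± 0.15, adjusted p = 0.00639), PSMG3 (-0.59 ± 0.18, adjusted p = 0.0223) and PSMD1 (-0.55 ± 0.18, adjusted p = 0.0383), and higher for PSMD10 (0.90 ± 0.20, adjusted p = 0.00261) and PSMG2 (0.65 ± 0.20, adjusted p = 0.0265). PSMD8, PSMB6, PSMC3, PSMD10 and PSMG2 passed the same way under all 3 scalings of the arrays. The call of PSMD1 was lost when any of 11 single arrays was left out, that of PSMG2 with any of 8, that of PSMG3 with any of 4 and that of PSMD3 without mock MM1R replicate 2. The second probes of PSMG4 (-0.10, adjusted p = 0.535) and PSMB8 (-0.43, adjusted p = 0.0988) did not pass. Dex and mock effects share the untreated arrays of each line.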

How the results depend on the processing

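Counts of members called moved with the scaling, array weights and the fold limit. Scaling by the median of all probes gave 4 members with Dex in MM1S cells, 3 (1 higher, 2 lower) between untreated lines, 14 (6 higher, 8 lower) between mock lines, 16 (12 higher, 4 lower) in mock against untreated MM1S cells, 3 (all higher) in MM1R cells and 7 (4 higher, 3 lower) for the difference of the mock effect. The shares of all genes under that scaling, which moved too, stand with each comparison above. Scaling over the probes above background on all arrays gave 4 (1 higher, 3 lower) between untreated lines, beside 4.75% of all genes higher and 3.92% lower. It gave 4 (1 higher, 3 lower) in mock against untreated MM1R cells, beside 5.87% of all genes higher and 11.4% lower. Array weights gave 20 lower with Dex in MM1S cells, 4 between untreated lines, 25 (16 higher, 9 lower) between mock lines, 8 (5 higher, 3 lower) with the mimetic in MM1S cells and 2 lower for the difference of the mimetic effect. A fold change over 1.5 kept 2 members with Dex in MM1S cells, 0 between untreated lines, 10 between mock lines, 8 in mock against untreated MM1S cells and 0 in MM1R cells. Over 2, 1 was left in mock against untreated MM1S cells, 2 in the difference of the mock effect and 0 in each of the other comparisons. No filter gave 2 in mock against untreated MM1R cells, and only the groups compared gave 4 between untreated lines. The second probe gave 5 (all lower) between untreated lines, beside 458 of 10988 genes lower and 521 higher. It gave 5 (3 higher, 2 lower) in mock against untreated MM1R cells, beside 1243 of 13283 genes higher and 1139 lower. Counts with fold limits, no filter, only the groups compared, replicate blocks or an array left out were not set against all genes in this section.

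No comparison had every correlation between the deviations of same-numbered replicates over 0.1, but single correlations were larger. They were 0.54, -0.47 and 0.37 for MM1R mimetic and mock arrays. For MM1R Dex and untreated arrays they were 0.06, 0.34 and 0.28 by title numbers and -0.11, -0.35 and -0.13 by description numbers. These values do not settle whether replicates were paired, and labels give untreated MM1R arrays conflicting numbers. A replicate block by title numbers gave 11 with Dex in MM1S cells and 4 (1 higher, 3 lower) between untreated lines, and by description numbers 10 and 3. No block changed another count by over 1.5 times.

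Leaving out each array gave 6 to 14 members with Dex in MM1S cells, 2 to 4 between untreated lines, 0 to 2 with the mimetic in MM1S cells, 13 to 18 between mock lines, 15 to 22 in mock against untreated MM1S cells, 0 to 5 in MM1R cells, and 9 to 13 for the difference of the mock effect. The difference of the Dex effect gave 4 each time, and Dex and mimetic in MM1R cells and the difference of the mimetic effect 0 each time.

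Directions turned with median scaling in mock against untreated MM1S cells for PSMB5 (0.0441), PSME2 (0.13), ADRM1 (0.12) and SEM1 (0.0854). With the second probe they turned for PSMC6 between mock lines (0.0554). In mock against untreated MM1R cells they turned for PSMC6 (0.20, which passed), PSME1 (0.18, which passed), MAFF (-0.0646) and USP14 (0.29). TAP2 turned in mock against untreated cells of each line (-0.47, which passed in both). The cause was not tested. For called single genes 2356 results were kept, 247 missed the threshold and 8 turned. The groups-compared fit was not run for differences, which use all their groups.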
